A study of Mus musculus with 24 samples.

Results

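The 12 co-culture libraries of the series, of 24 in all, were used to measure how the effect of interleukin-1β (IL-1β) on mouse chondrocytes changed between 36 h and 72 h of treatment. The sequenced cells were wild-type primary chondrocytes, isolated from cartilage with collagenase II and kept in DMEM/F12 with ITS and fetal bovine serum. In all 12 libraries they shared a transwell dish with wild-type dermal fibroblasts, isolated from skin with collagenase I and kept in alpha-MEM with serum; the fibroblasts themselves were not sequenced, and the medium of the shared dish is not stated in the labels. The libraries form 4 groups of 3: no IL-1β at 36 h, IL-1β at 10 ng/ml at 36 h, no IL-1β at 72 h, and IL-1β at 10 ng/ml at 72 h. The other 12 libraries hold the same 4 groups of chondrocytes grown without fibroblasts (normal culture) and serve here for comparison only. Since no label says whether the 3 replicates of a group were separate cultures or animals, p-values here reflect only the spread among these libraries, which may be technical.

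IL-1β is a cytokine made mainly by cells of the innate immune system. It binds the receptor encoded by Il1r1, which signals through the adaptor MyD88 to the transcription factor NF-kB and to MAP kinases. In chondrocytes it is known to raise matrix-degrading proteases, cytokines, nitric oxide synthase and prostaglandin enzymes and to lower the genes of cartilage matrix, and it is widely used to imitate joint inflammation in culture.

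The quantity tested was the IL-1β effect (treated minus untreated) at 72 h minus the IL-1β effect at 36 h, on the scale of log2(FPKM + 1), where FPKM is the deposited expression value normalised for gene length and sequencing depth. It is called the time difference below: a positive value means a more positive effect at 72 h. The same number equals the shift of the treated level from 36 h to 72 h minus the shift of the untreated level, so each time difference can be traced to the level that moved. A gene was assigned to the untreated or the treated level where the sum of both shifts also passed the test and so showed which of them was larger in size on the log2 scale; the other genes are given as not told apart. The threshold was an adjusted p of 0.05 (limma, Benjamini-Hochberg over all 12178 tested genes).

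The cells labelled chondrocytes expressed the defining genes Col2a1, Acan and Sox9, which in the untreated 36 h libraries stood at 404, 395 and 380 FPKM, at 13.9, 13.5 and 13.6 FPKM, and at 26.6, 25.8 and 25.9 FPKM. Of 22 cartilage matrix genes, Chad, Matn1, Cilp2 and Snorc were below 1 FPKM in all 12 libraries, and the fibroblastic collagen gene Col1a1 was high, at 2401, 2388 and 2381 FPKM without IL-1β at 36 h. The libraries summed to 441990 to 504696 FPKM and held 11360 to 11584 genes at 1 FPKM or more. The residual SD on the log2 scale was 0.119 in the IL-1β group at 72 h and 0.0853 to 0.0886 in the others, and replicate 3 of that group stood farthest from its group mean. Depth is unknown, since the table holds no counts.

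The time difference passed for 4107 genes, 33.7% of those tested, with a more positive IL-1β effect at 72 h for 2111 (17.3%) and a more negative one for 1996 (16.4%). A difference of at least 2-fold was found for 151 genes in the positive direction (1.24%) and 86 in the negative (0.706%). Over all tested genes the median time difference was 0.00 (0.00121). Both levels moved: 72 h differed from 36 h for 7830 genes without IL-1β (64.3%; 38.1% rose and 26.2% fell) and for 8174 with it (67.1%; 36.8% and 30.3%). IL-1β itself changed 7504 genes at 36 h (61.6%; 24.4% higher and 37.2% lower) and 6515 at 72 h (53.5%; 19.7% and 33.8%). These shares of all genes are the background for every count over a gene list below.

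Among all 4107 genes the treated level moved more for 1945 (47.4%), the untreated level for 1419 (34.6%), and 743 (18.1%) were not told apart. As shares of all tested genes these are 16%, 11.7% and 6.1%. Among those with at least a 2-fold difference the order was the other way round, with 158 genes (66.7%) for which the untreated level moved more, 56 (23.6%) for the treated level and 23 (9.7%) not told apart. By the size of the log2 shifts alone, the treated shift was the larger for 30 of the 151 positive genes of this size (19.9%) and for 41 of the 86 negative ones (47.7%). The large positive time differences were thus mostly those of genes whose level without IL-1β changed more between the times. Among the large negative ones the split was nearly even. Small time differences were more often those of genes whose level under IL-1β changed more.

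**Figure D1:**
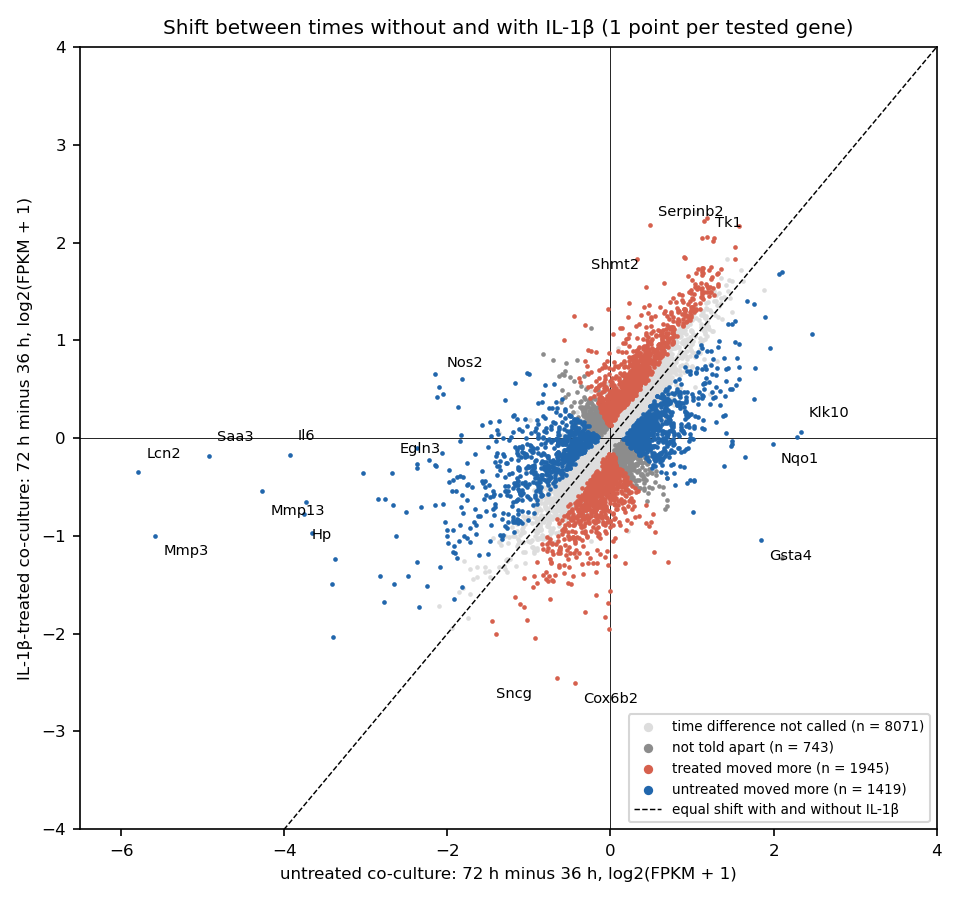
Shift from 36 h to 72 h without IL-1β (x axis) and with IL-1β (y axis), both on the scale of log2(FPKM + 1), 1 point per tested gene; the dashed line marks an equal shift. Genes named at the left lie farther below 0 on the x axis than on the y axis, as Lcn2 does at -5.79 and -0.35; the 1945 red genes moved more with IL-1β and the 1419 blue genes moved more without it.

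The direction of the IL-1β effect itself turned for many genes. Of the 151 genes with a positive difference of at least 2-fold, 53 were lower with IL-1β at 36 h and higher at 72 h, 50 were higher at both times, 21 were higher at 72 h without having passed at 36 h, 15 were lower at both and 12 were lower at 36 h alone. Of the 86 in the negative direction, 29 were higher with IL-1β at 36 h and lower at 72 h, 26 were higher at both, and 17 were higher at 36 h alone. Over all 4107 genes, 195 turned from lower to higher and 226 from higher to lower.

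The 5 genes with the most positive time differences were the acute phase genes Lcn2 and Saa3, the matrix protease genes Mmp3 and Mmp13 and the cytokine gene Il6, and without IL-1β each of them fell by 3.94 or more on the log2 scale between the times. Lcn2 (chromosome 2, 32384633 to 32388252, GRCm38), which encodes the iron-siderophore binding protein lipocalin 2, was at 146, 149 and 147 FPKM without IL-1β at 36 h and at 2.09, 1.03 and 2.07 at 72 h. With IL-1β it was at 2712, 2806 and 2739 FPKM at 36 h and at 2020, 2080 and 2392 at 72 h. The untreated groups of both times lay far apart, and the treated groups also did not overlap but differed by a much smaller ratio. The IL-1β effect on Lcn2 was 4.21 at 36 h and 9.65 at 72 h on the log2 scale, a time difference of 5.44 ± 0.17 (SE, adjusted p = 1.13e-11).

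Saa3 (chromosome 7, 46711998 to 46715700), an acute phase serum amyloid A gene, was at 48.9, 58.2 and 61.9 FPKM without IL-1β at 36 h and at 1.03, 0.76 and 0.86 at 72 h. Under IL-1β the values were 7582, 7529 and 7618 at 36 h and 6166, 6152 and 7857 at 72 h. Only the untreated groups were separate: replicate 3 of the treated 72 h group was above all treated 36 h libraries. The time difference was 4.74 ± 0.13 (adjusted p = 3.89e-12), with an untreated shift of -4.92 and a treated shift of -0.18 that did not pass (adjusted p = 0.097).

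Mmp3 (chromosome 9, 7445822 to 7455975), the protease stromelysin-1, had 107, 104 and 112 FPKM without IL-1β at 36 h and 1.44, 0.99 and 1.42 at 72 h, against 2480, 2397 and 2602 with IL-1β at 36 h and 1232, 1162 and 1355 at 72 h. Both levels fell, the untreated one by 5.58 and the treated one by 1.00 on the log2 scale, and the time difference was 4.58 ± 0.10 (adjusted p = 1.29e-12). Mmp13, the main collagenase of cartilage (chromosome 9, 7272514 to 7283331), had 234, 225 and 241 FPKM without IL-1β at 36 h and 12.2, 8.99 and 12.5 at 72 h. With IL-1β it was at 413, 394 and 477 FPKM at 36 h and at 304, 284 and 291 at 72 h. At 36 h IL-1β therefore raised Mmp13 by 0.87 on the log2 scale, and at 72 h by 4.60, although the treated level itself had fallen by 0.54 (time difference 3.73 ± 0.13, adjusted p = 6.30e-11).

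These statements on which level moved hold for ratios. In FPKM the treated cells lost more than the untreated ones for several of the same genes, because their level was higher. The IL-1β effect on Mmp3 was 2385 FPKM at 36 h and 1248 FPKM at 72 h, that on Lcn2 2605 and 2162 FPKM, and that on Saa3 7520 and 6724 FPKM, so on the linear scale these effects were smaller at 72 h. For Mmp13 the effect grew on both scales, from 194.6 to 282 FPKM.

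Of 22 matrix-degrading enzymes tested, 8 had a more positive and 4 a more negative effect at 72 h (median 0.05), so the list as a whole did not follow Mmp3 and Mmp13. The aggrecanase gene Adamts5 fell by 1.31 on the log2 scale both with and without IL-1β: it was at 58.9, 59.1 and 58.3 FPKM without IL-1β at 36 h and 23.1, 23.6 and 22.8 at 72 h, and at 49.0, 50.4 and 49.5 with IL-1β at 36 h and 21.1, 19.7 and 17.6 at 72 h (time difference -0.00253 ± 0.07, adjusted p = 0.98). Adamts4, the other main aggrecanase, had a difference of 0.26 (adjusted p = 0.025) that did not pass in 5 of the alternative analyses. In the opposite direction to Mmp3 went Mmp9, gelatinase B, for which the treated level moved more: it fell from a mean of 14.2 to 5.27 FPKM with IL-1β, and the difference was -1.0 (adjusted p = 1.3e-06). With a pseudocount of 0.1 in place of 1 the Mmp9 difference was -0.50 and did not pass (adjusted p = 0.058). Without replicate 2 of the untreated 36 h or 72 h group, or replicate 3 of the treated 36 h group, 5 enzymes in place of 8 passed in the positive direction.

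**Figure D2:**
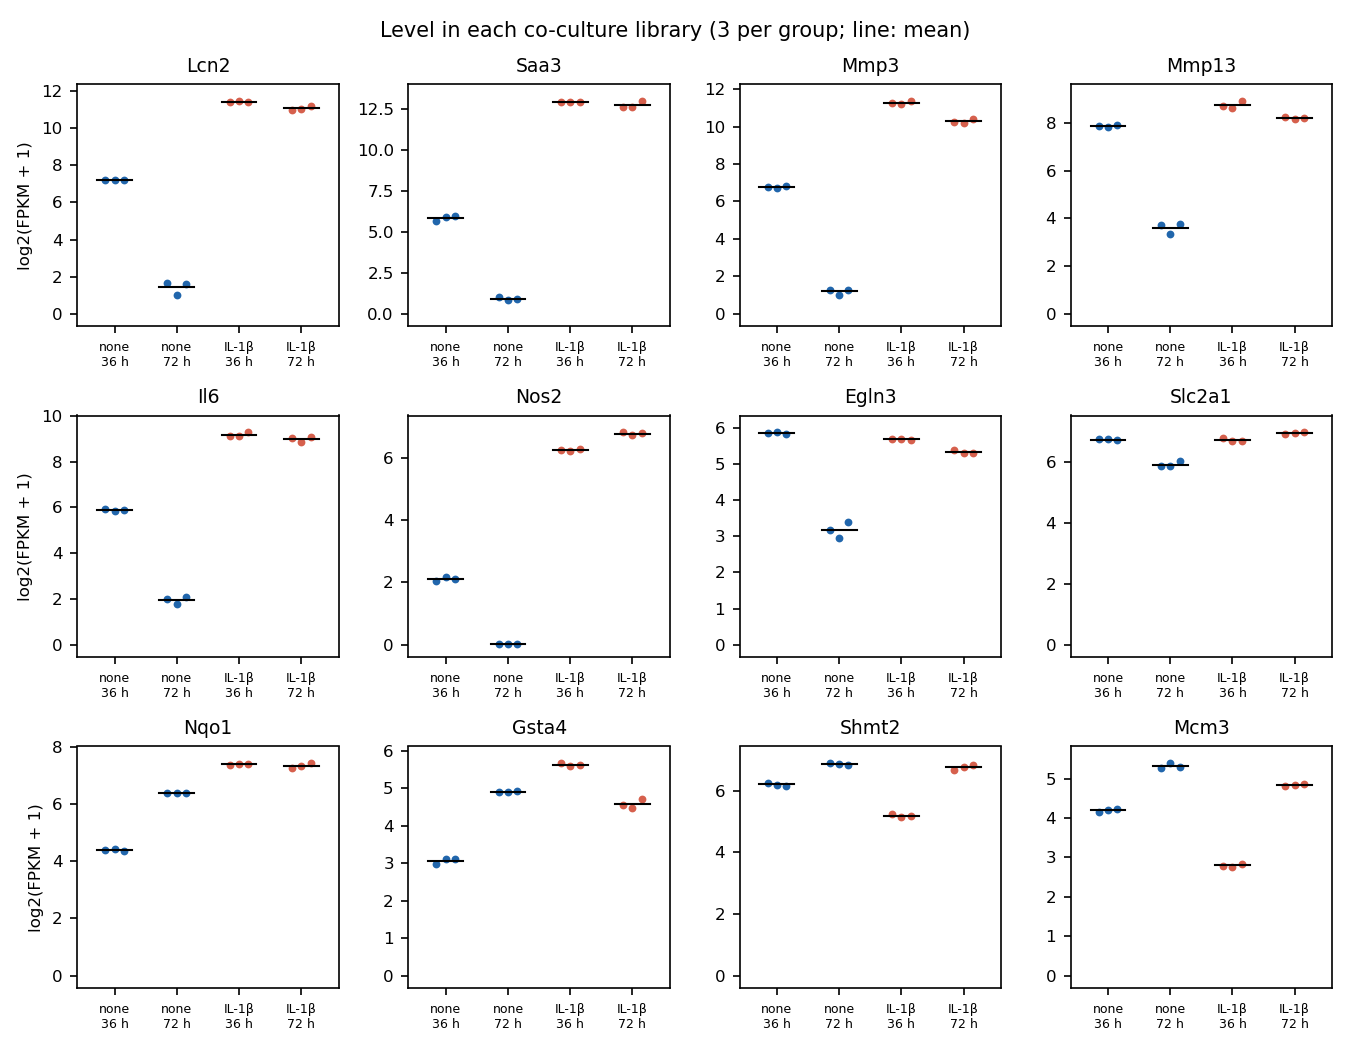
Level of 12 genes in each of the 12 co-culture libraries, as log2(FPKM + 1), by IL-1β and time; points are libraries and lines are group means. Lcn2, Saa3, Mmp3, Mmp13, Il6, Nos2, Egln3 and Slc2a1 drop in the untreated 72 h group, Nqo1 and Gsta4 rise in it, and Shmt2 and Mcm3 rise most in the treated groups.

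The list that joins acute phase genes with those of prostaglandin and nitric oxide synthesis had 11 tested members, and 9 of them had a more positive effect at 72 h and none a more negative one (median 2.11). For all 9 the untreated level moved more. Besides Lcn2 and Saa3 these were the haptoglobin gene Hp (2.98), the metalloreductase gene Steap4 (3.08), the nitric oxide synthase gene Nos2 (2.63), the cholesterol 25-hydroxylase gene Ch25h (2.11), the zinc transporter gene Slc39a14 (1.26), and the prostaglandin enzymes Ptgs2 (0.69) and Ptges (0.63). Saa1 and Saa2 did not pass (0.28 and -0.30), at levels of at most 2.21 FPKM in any group mean. Nos2 is an example in which both levels moved apart: without IL-1β it was at 3.15, 3.55 and 3.36 FPKM at 36 h and at 0.01 in each library at 72 h, while with IL-1β it was at 76.7, 74.6 and 77.4 FPKM at 36 h and at 113, 106 and 111 at 72 h. Its difference was 5.50 with a pseudocount of 0.1.

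Of 18 inflammatory cytokine and chemokine genes, the effect was more positive at 72 h for 12 and more negative for 4 (median 0.80), and the untreated level moved more for 12 of these 16. Il6 (chromosome 5, 30013114 to 30019981), the gene of interleukin-6, was at 59.9, 56.2 and 58.2 FPKM without IL-1β at 36 h and at 3.04, 2.40 and 3.18 at 72 h. With IL-1β it had 557, 550 and 622 FPKM at 36 h and 522, 470 and 544 at 72 h, groups that did not overlap but whose difference did not pass (adjusted p = 0.053). The time difference of Il6 was 3.77 ± 0.10 (adjusted p = 3.89e-12).

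Several chemokine genes also had positive differences. Cxcl5, a neutrophil attractant, had 586, 606 and 581 FPKM without IL-1β at 36 h and 71.1, 65.9 and 76.8 at 72 h, and 3635, 3569 and 3831 with IL-1β at 36 h and 2855, 2859 and 2909 at 72 h (time difference 2.68 ± 0.07). For the monocyte attractant Ccl2 the levels moved in opposite directions. Its untreated level fell from 210, 205 and 203 FPKM to 43.8, 46.3 and 49.2, and its treated level rose from 1206, 1232 and 1252 FPKM to 1580, 1561 and 1825 (time difference 2.55 ± 0.08, adjusted p = 1.52e-11). Ccl7 (2.19), Cxcl1 (2.00), Ccl20 (1.65), Cxcl2 (1.04) and Cxcl3 (0.91) also passed in the positive direction. The 4 members with a more negative effect at 72 h were Ccl5, a T-cell attractant (-1.06), the macrophage growth factor gene Csf1 (-0.92), Cx3cl1 (-0.88) and Il1a (-0.36). With a pseudocount of 0.1, 2 members in place of 4 passed in this direction. Ccl5, Cx3cl1 and Il1a fell under IL-1β, Ccl5 from a mean of 108 to 40.4 FPKM, whereas Csf1 rose without it, from 125 to 222 FPKM.

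NF-kB subunits, feedback inhibitors and targets were tested as a list of 18, of which 11 had a more positive effect at 72 h and 2 a more negative one (median 0.36). The largest were the RNase gene Zc3h12a (1.28), the IkB family genes Nfkbiz (1.24) and Bcl3 (1.03), the deubiquitinase gene Tnfaip3 (0.94), Sod2 (0.89) and the inhibitor Nfkbia (0.88). All of these fell without IL-1β. Nfkbiz, for example, was at 36.9, 35.7 and 37.2 FPKM without IL-1β at 36 h and at 9.30, 9.16 and 10.5 at 72 h, and at 106, 102 and 106 with IL-1β at 36 h and 75, 69.8 and 65.2 at 72 h. For the subunit genes Rela and Nfkb2 the treated level rose, by 0.28 and 0.21, and the untreated shifts of 0.01 and -0.05 did not pass. Icam1, an adhesion molecule, went the other way (-0.67), and its treated level fell from a mean of 28.4 to 10.9 FPKM.

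The receptors through which these cytokines act changed as well. Of 15 tested, 8 had a more positive effect and 2 a more negative one (median 0.34), and for 8 the untreated level moved more. Il1r1, the signalling receptor of IL-1β itself, was at 91.0, 86.1 and 89.0 FPKM without IL-1β at 36 h and at 40.2, 37.5 and 41.6 at 72 h, and with IL-1β at 54.7, 54.1 and 56.9 at 36 h and 46.2, 44.9 and 41.4 at 72 h. IL-1β lowered Il1r1 by 0.67 at 36 h, and at 72 h its effect was 0.15, with treated and untreated groups that overlapped (time difference 0.82 ± 0.07, adjusted p = 4.08e-07). The chemokine scavenger gene Ackr3 (1.38), Il13ra1 (0.99), Il4ra (0.79) and Lifr (0.52) had the same direction. Without replicate 1 of the treated 72 h group 4 in place of 2 were more negative. Il1rn, the receptor antagonist, was lowered by IL-1β at both times, by 2.36 and 2.01.

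Complement genes made a similar picture, with 7 of 12 more positive at 72 h and 3 more negative (median 0.61). C3, the central component, was at 20.8, 20.7 and 22.3 FPKM without IL-1β at 36 h and at 0.84, 0.56 and 0.91 at 72 h, and at 155, 152 and 151 FPKM at 36 h with IL-1β and 73.9, 74.4 and 83.5 at 72 h (time difference 2.68 ± 0.09). Cfb (2.22), C4b (1.92), the C1 inhibitor gene Serping1 (1.75), C1s1 (1.42) and C1ra (0.92) also had a larger fall without IL-1β. C4b was lower with IL-1β at 36 h by 1.90, and at 72 h the 2 groups were at means of 3.33 and 3.38 FPKM.

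Hypoxia-induced genes and glycolytic enzymes had the highest shares called in 1 direction among the 35 lists: 18 of 19 and 18 of 18 had a more positive effect at 72 h, and none a more negative one, against 17.3% of all tested genes. Their medians were 1.03 and 0.77. Hypoxia-inducible factor (HIF) is a transcription factor whose alpha subunit is destroyed when oxygen is present, after hydroxylation by enzymes of the EGLN family, and its targets include glucose transporters, glycolytic enzymes and EGLN genes themselves. At 36 h IL-1β lowered 13 of the 19 hypoxia genes and raised 4; at 72 h it raised 18 and lowered Car12 alone. Of the glycolysis genes it lowered 13 and raised none at 36 h and raised all 18 at 72 h.

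Egln3 (chromosome 12, 54178981 to 54203860), which encodes a HIF prolyl hydroxylase, was at 57.0, 57.9 and 56.0 FPKM without IL-1β at 36 h and at 8.02, 6.71 and 9.53 at 72 h. With IL-1β the values were 50.9, 50.9 and 50.3 at 36 h and 41.1, 38.6 and 38.6 at 72 h. The 3 untreated 72 h libraries were below all other 9 libraries, and the time difference was 2.33 ± 0.11 (adjusted p = 1.55e-09). Without IL-1β all 19 hypoxia genes fell between the times (median -0.92), and with it 5 rose and 8 fell (median 0.07). For 15 of them the untreated level moved more, among them Angptl4, an inhibitor of lipoprotein lipase (2.13), Ndrg1 (1.72), the carbonic anhydrase gene Car9 (1.37), the mitophagy receptor gene Bnip3 (1.24) and the collagen prolyl hydroxylase genes P4ha2 (1.16) and P4ha1 (0.47). Car9 fell in both conditions, from a mean of 203 to 18.6 FPKM without IL-1β and from 134 to 32.1 with it. The lipid droplet gene Hilpda was not told apart, with shifts of -0.83 without IL-1β and 0.86 with it.

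HIF binds a short DNA core, ACGTG, which was looked for on both strands in the 250 bases before the transcription start (RefSeq promoters, GRCm38.p6, found for 9757 of the 12178 tested genes). It was present for 11 of 15 hypoxia genes with a positive time difference and a promoter entry (73.3%), for 9 of 17 glycolysis genes (52.9%) and for 25.3% of all tested genes with an entry. The core is also part of the E-box CACGTG, which other factors bind, and a match is no measured binding site. Motifs of AP-1, NF-kB and the antioxidant response element (ARE) were searched in the same way. These matched 3, 6 and 3 of the 15 hypoxia genes, against 5.55%, 26.5% and 13.9% of all tested genes with an entry. Of the 17 glycolysis genes they matched 1, 3 and 2. Among genes with a positive difference of at least 2-fold and an entry, 36.4% held the HIF core and 38.3% the NF-kB motif. Among those with a negative difference of that size the shares were 22.1% and 33.8%. These shares were not compared by a test. Since 18 of 19 hypoxia genes and 18 of 18 glycolysis genes had a positive time difference, the shares in these lists describe how the lists were chosen. They cannot be tied to the time difference. The sequences are those of the 3 hypoxia genes with the largest time difference among those with 1 listed promoter that holds the core and no annotated exon, chosen after the matches were known; capitals mark the core, read on the strand of the gene.
Egln3, chr12:54203875-54204124, minus strand: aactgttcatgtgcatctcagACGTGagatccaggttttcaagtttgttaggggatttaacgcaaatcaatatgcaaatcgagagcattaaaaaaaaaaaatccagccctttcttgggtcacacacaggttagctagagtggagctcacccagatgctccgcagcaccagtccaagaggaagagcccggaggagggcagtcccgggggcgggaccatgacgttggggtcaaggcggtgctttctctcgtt
P4ha2, chr11:54100674-54100923, plus strand: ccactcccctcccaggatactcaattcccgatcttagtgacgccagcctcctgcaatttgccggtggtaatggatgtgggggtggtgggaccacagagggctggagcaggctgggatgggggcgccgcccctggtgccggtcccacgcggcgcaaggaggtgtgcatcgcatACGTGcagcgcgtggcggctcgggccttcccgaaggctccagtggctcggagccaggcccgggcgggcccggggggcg
P4ha1, chr10:59323046-59323295, plus strand: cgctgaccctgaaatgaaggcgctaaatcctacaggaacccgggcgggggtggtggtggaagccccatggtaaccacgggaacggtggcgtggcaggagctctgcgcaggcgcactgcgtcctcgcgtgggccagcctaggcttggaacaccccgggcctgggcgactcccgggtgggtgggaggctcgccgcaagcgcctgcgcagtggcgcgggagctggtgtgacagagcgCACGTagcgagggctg
The core begins 229 bases before the start in Egln3, 78 in P4ha2 and, on the opposite strand, 16 in P4ha1.

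In the glycolysis list both levels took part: the treated level moved more for 8 genes, the untreated one for 7, and 3 were not told apart. Without IL-1β 17 of the 18 genes fell between the times (median -0.35), and with IL-1β 13 rose and 2 fell (median 0.38). The glucose transporter gene Slc2a1 was at 107, 107 and 105 FPKM without IL-1β at 36 h and at 57.3, 57.8 and 64.5 at 72 h, and with IL-1β at 110, 103 and 104 at 36 h and 121, 124 and 125 at 72 h. At 36 h the treated and untreated groups overlapped, and at 72 h all treated libraries were above all untreated ones (time difference 1.04 ± 0.06, adjusted p = 1.79e-08). Hexokinase 2 (Hk2, 1.12), the regulatory enzyme gene Pfkfb3 (1.22), the lactate exporter gene Slc16a3 (1.01), Eno1 (0.93), Pgk1 (0.89) and Ldha (0.66) also passed. For Pfkfb3 the treated level stayed at a mean of 33.0 and 33.2 FPKM while the untreated one fell from 40.9 to 17.0, whereas for Ldha the untreated shift of -0.08 did not pass and the treated mean rose from 1132 to 1692 FPKM. With the replicate number as a block within each time, the treated level moved more for 2 of the 18.

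**Figure D3:**
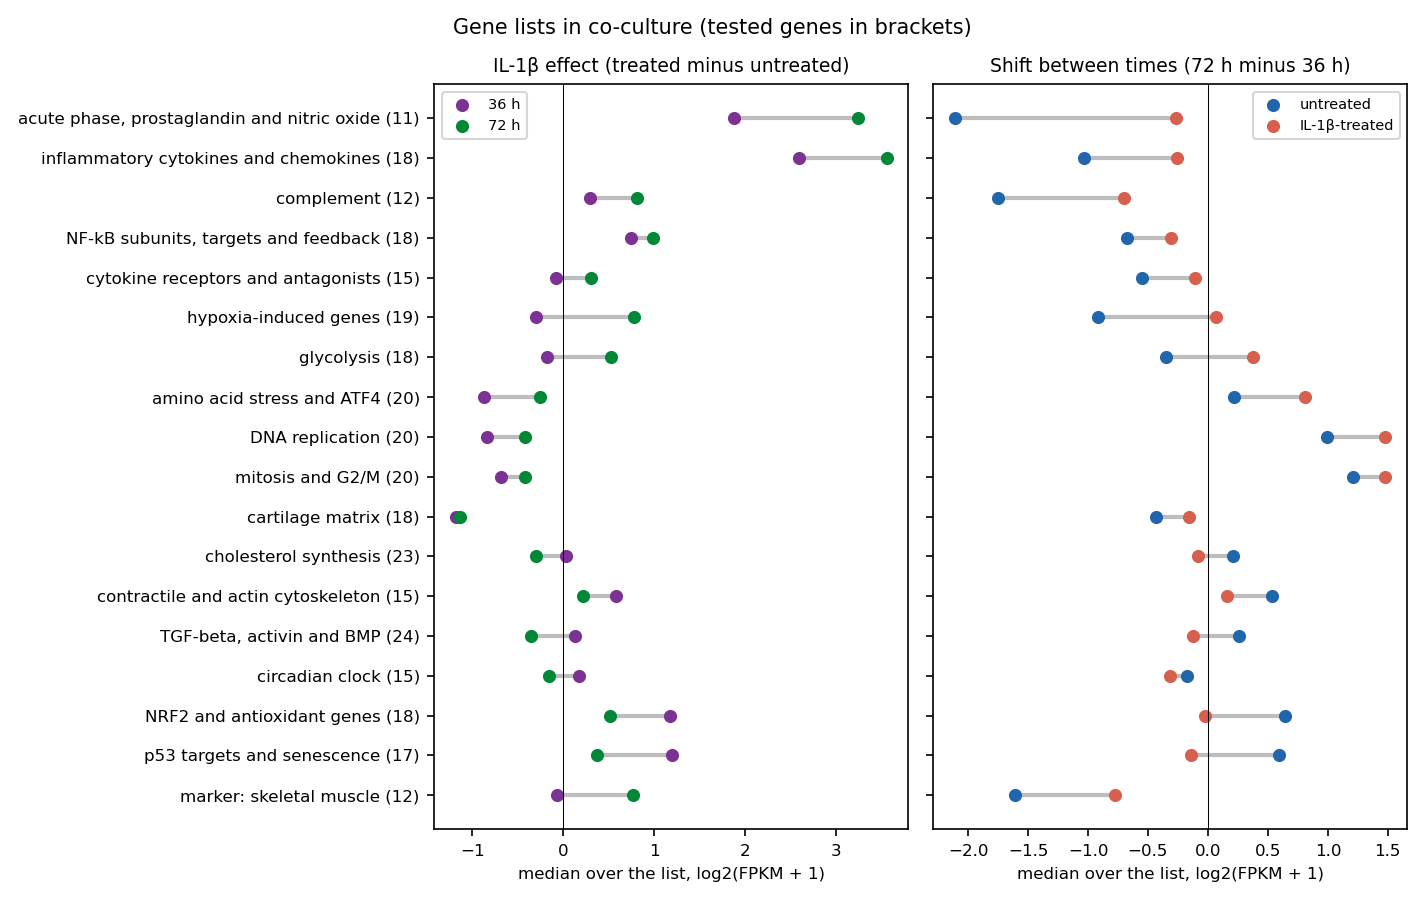
Median over each gene list, on the scale of log2(FPKM + 1), of the IL-1β effect at both times (left) and of the shift from 36 h to 72 h in both conditions (right); the number of tested genes is in brackets. Hypoxia and glycolysis medians cross 0 from 36 h to 72 h on the left, and the inflammatory lists at the top show the larger fall without IL-1β on the right.

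Genes of the oxidative stress response had the reverse course. NRF2 is the transcription factor that raises glutathione and detoxification enzymes, and of 18 genes of that list 15 had a more negative IL-1β effect at 72 h and none a more positive one (median -0.54; background 16.4%). IL-1β raised 17 of them at 36 h and 15 at 72 h, so for most members the effect shrank. Nqo1 (chromosome 8, 107388225 to 107403206), a quinone reductase and standard NRF2 target, was at 19.8, 20.4 and 19.5 FPKM without IL-1β at 36 h and at 81.8, 82.1 and 82.6 at 72 h. With IL-1β it was at 165, 166 and 169 FPKM at 36 h and at 152, 159 and 170 at 72 h, so that the untreated groups were apart and the treated ones overlapped (time difference -2.05 ± 0.06, adjusted p = 3.89e-12).

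Gsta4 (chromosome 9, 78182774 to 78209349), a glutathione transferase that acts on lipid peroxidation products, had the most negative time difference among genes with a mean of at least 5 FPKM in their highest group, -2.89 ± 0.08 (adjusted p = 4.26e-12). It had 6.84, 7.61 and 7.57 FPKM without IL-1β at 36 h and 28.6, 28.7 and 29.6 at 72 h, and 49.7, 47.1 and 48.5 with IL-1β at 36 h and 22.6, 21.0 and 25.3 at 72 h. All 3 treated libraries were above the untreated ones at 36 h and below them at 72 h. The glutathione synthesis genes Gclm (-1.05) and Gclc (-0.83), Prdx1 (-0.76), Srxn1 (-0.61), Txnrd1 (-0.55) and Hmox1 (-0.44) had smaller differences, and for 12 of the 15 the untreated level moved more.

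Targets of p53, the transcription factor of the DNA damage response, went the same way: 14 of 17 had a more negative effect at 72 h and Sesn2 a more positive one (median -0.75). The cyclin G1 gene Ccng1 was at 66.3, 66.3 and 64.6 FPKM without IL-1β at 36 h and at 132, 139 and 134 at 72 h, and with IL-1β at 236.3, 240.2 and 236.4 at 36 h and 184, 170 and 173 at 72 h. All 4 groups were apart, and the time difference was -1.46 ± 0.05 (adjusted p = 6.30e-11). Cdkn1a, the cell cycle inhibitor p21, rose from a mean of 93.2 to 141 FPKM without IL-1β and fell from 428 to 303 with it (-1.08). Perp, a p53 target of desmosomes, had -2.27, with a level of 0.36, 0.49 and 0.41 FPKM in the untreated 36 h libraries and 5.08, 6.46 and 6.31 in those of 72 h; its treated shift of 0.01 did not pass, and the difference of Perp was -3.5 with a pseudocount of 0.1.

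For amino acid stress genes it was the treated level that moved more. ATF4 is the transcription factor that raises amino acid synthesis and transport when amino acids or protein folding are limiting. Of 20 genes, 17 had a more positive effect at 72 h and none a more negative one (median 0.58), and for 16 of them the treated level moved more. IL-1β lowered 17 of the 20 at 36 h and 12 at 72 h. Shmt2, a mitochondrial serine hydroxymethyltransferase (chromosome 10, 127517123 to 127522444), had 75.7, 72.1 and 70.8 FPKM without IL-1β at 36 h and 117, 117 and 113 at 72 h, and 36.6, 34.0 and 35.5 with IL-1β at 36 h and 102, 109 and 113 at 72 h. The treated level was below the untreated one by 1.02 on the log2 scale at 36 h, and the groups of 72 h overlapped, with an IL-1β effect of -0.10 that did not pass (adjusted p = 0.076). The time difference was 0.92 ± 0.06 (adjusted p = 5.92e-08). Trib3, an inhibitor of AKT and target of ATF4, had the largest one (1.46). Its treated level rose from 11.7, 10.8 and 11.2 FPKM to 24.9, 25.6 and 28.3. Mthfd2 (0.89), Chac1 (0.88), Slc7a5 (0.83), Asns (0.71), Phgdh (0.66) and Atf4 itself (0.62) followed.

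All 20 listed DNA replication genes rose between the times without IL-1β (median 0.99) and with it (median 1.48). The time difference was positive for 16 and negative for none (median 0.44), and for all 16 the treated level moved more. Mcm3, a subunit of the replicative helicase (chromosome 1, 20802968 to 20820312), was at 16.8, 17.4 and 17.8 FPKM without IL-1β at 36 h and at 37.5, 40.9 and 38.1 at 72 h, and with IL-1β at 5.92, 5.78 and 6.17 at 36 h and 27.4, 27.5 and 28.3 at 72 h. The treated level stayed below the untreated one at both times, by 1.40 and 0.47 (time difference 0.92 ± 0.06, adjusted p = 4.38e-08). Mcm6 (0.93), the thymidine kinase gene Tk1 (0.88), Mcm2 (0.65) and Pcna (0.58) also passed, and in FPKM the rise without and with IL-1β was 21.5 and 21.8 for Mcm3, 15.6 and 14.2 for Mcm2, and 29.5 and 28.4 for Tk1, so the larger treated shift holds for ratios. The ribonucleotide reductase genes Rrm1 and Rrm2 did not pass (-0.07 and -0.01). Mitosis genes also all rose in both conditions, but 11 of 20 passed for the time difference (median 0.22), and 3 of 20 where all 24 libraries shared 1 estimate of the spread. In FPKM Aurkb, Birc5, Ccna2 and Mki67 rose by 14.8, 53.3, 38.1 and 22.2 without IL-1β and by 13.8, 45.1, 29.1 and 17.8 with it. For these genes too the larger treated shift holds for ratios.

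Cartilage matrix genes had time differences in both directions. IL-1β lowered 15 of 18 cartilage matrix genes at each time and raised 2, and the median effect was -1.18 at 36 h and -1.13 at 72 h. The time difference was positive for 6 and negative for 7 (median 0.15). Col2a1, the gene of type II collagen, rose without IL-1β from 404, 395 and 380 FPKM to 733, 804 and 795, and with IL-1β from 129, 131 and 125 to 222, 205 and 194, a difference of -0.30 ± 0.07 (adjusted p = 0.0051). Acan, encoding the proteoglycan aggrecan, had 13.9, 13.5 and 13.6 FPKM without IL-1β at 36 h and 18.7, 20.01 and 20.6 at 72 h, and 1.44, 1.42 and 1.35 with IL-1β at 36 h and 2.15, 1.55 and 1.12 at 72 h. Its difference of -0.40 ± 0.14 (adjusted p = 0.040) did not pass in 14 of the alternative analyses, and was -0.27 without replicate 3 of the treated 72 h group. Sox9, the chondrocyte transcription factor, was lowered by 2.12 at 36 h and by 1.74 at 72 h (time difference 0.38 ± 0.07, adjusted p = 0.00061).

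Among cartilage genes with larger differences, the growth inhibitor chondromodulin (Cnmd, 1.01) and the matrix protein genes Cilp (1.24) and Comp (0.44) fell more without IL-1β than with it. Cnmd was at 18.8, 18.3 and 18.6 FPKM without IL-1β at 36 h and at 7.40, 4.95 and 7.33 at 72 h, and below 1 FPKM in all 6 treated libraries. With a pseudocount of 0.1 its difference was 0.61 and did not pass (adjusted p = 0.14). Col10a1, the collagen of hypertrophic cartilage, and Sp7, an osteoblast transcription factor, had negative differences (-0.99 and -0.85). Col10a1 rose from 1.14, 1.09 and 1.35 FPKM to 5.07, 5.65 and 5.40 without IL-1β and from 1.49, 1.12 and 1.12 to 2.22, 2.19 and 2.39 with it. No time difference passed for Prg4, the gene of the lubricant lubricin (0.06, adjusted p = 0.46), or for Col1a1 (0.15, adjusted p = 0.081).

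Penk, which encodes the opioid precursor proenkephalin, fell without IL-1β and rose with it. It was at 199, 197 and 212 FPKM without IL-1β at 36 h and at 48.9, 35.6 and 50.9 at 72 h, and with IL-1β at 22.6, 23.3 and 24.3 at 36 h and 35.9, 36.8 and 39.4 at 72 h. The IL-1β effect was -3.06 at 36 h and -0.25 at 72 h (time difference 2.81 ± 0.13, adjusted p = 1.66e-09), and one untreated library of 72 h lay below the treated ones of that time.

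Some of the most negative differences belonged to genes that IL-1β had raised at 36 h and whose treated level then fell. Cox6b2, an isoform of a cytochrome c oxidase subunit, had 53.1, 54.5 and 47.7 FPKM at 36 h with IL-1β and 8.23, 7.10 and 9.64 at 72 h, against 8.14, 5.83 and 7.23 and 4.91, 4.31 and 5.69 without it (time difference -2.08 ± 0.16, adjusted p = 2.29e-07). Ltc4s, the leukotriene C4 synthase, was at 5.64, 5.02 and 5.12 FPKM in the treated 36 h libraries and below 1 FPKM in the other 9 (-1.93 ± 0.13). Sncg, the gamma-synuclein gene (-1.81), the cysteine dioxygenase gene Cdo1 (-1.76) and the phosphatase gene Ptp4a3 (-1.70) fell likewise under IL-1β.

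Other lists also leaned to 1 side. Among circadian clock genes the treated level of Dbp, a clock-controlled transcription factor, fell from 17.6, 17.7 and 15.6 FPKM to 4.16, 3.99 and 4.48, and the untreated level from 10.6, 11.2 and 11.8 to 8.31, 8.90 and 9.26 (time difference -1.47 ± 0.09). Of 15 clock genes 8 had a more negative and 4 a more positive effect, the latter being Ciart (1.15), Npas2 (0.84), Arntl (0.64) and Cry1 (0.28). With the filter at 5 FPKM, 5 of 11 clock genes were more negative and 3 more positive, and the median was -0.123 in place of -0.465. Cholesterol synthesis genes had a more negative effect for 16 of 23 and a more positive one for none (median -0.30), with IL-1β lowering 5 genes at 36 h and 19 at 72 h. Of 15 contractile and actin genes 11 were more negative at 72 h (median -0.32), among them Tagln (-0.72) and the smooth muscle actin gene Acta2 (-0.61), and for 10 the untreated level moved more. TGF-beta, activin and BMP genes had 16 of 24 more negative and 5 more positive (median -0.31), with the ligand genes Inhbb (-1.50), Tgfb3 (-1.13) and Tgfb2 (-0.98), the latent TGF-beta binding protein gene Ltbp1 (-1.02) and the BMP antagonist gene Nog (-1.01, and -1.65 with a pseudocount of 0.1) at the head; without replicate 3 of the untreated 36 h group or replicate 1 of the untreated 72 h group 3 in place of 5 were more positive.

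Markers of other cell types moved with time and treatment in the same libraries. Skeletal muscle markers summed to 246 to 287 FPKM without IL-1β at 36 h, 262 to 286 with IL-1β at 36 h, 63.8 to 74.8 without it at 72 h and 119 to 157 with it at 72 h. Of 12 such genes 10 had a positive time difference and none a negative one (median 0.75), and for all 10 the untreated level moved more, as in the inflammatory, complement and hypoxia lists. Mylpf, a fast muscle myosin light chain, was at 78.2, 80.2 and 90.8 FPKM without IL-1β at 36 h and at 20.2, 20.6 and 21.6 at 72 h, and with IL-1β at 55.8, 59.0 and 58.7 at 36 h and 33.5, 41.5 and 43.8 at 72 h; the giant sarcomere gene Ttn was below 1 FPKM in all 12 libraries. The part of these cells in the other results was not tested. In bulk samples fewer cells of a type and less RNA per cell cannot be told apart.

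Epithelial genes, of which 6 of 8 tested had a negative difference, summed to 17.7 to 19.6 FPKM without IL-1β at 36 h, 12.3 to 14.1 with it, and 52.1 to 62.8 and 22.9 to 24.3 at 72 h; Krt5, Cdh1 and Epcam were below 1 FPKM in all 12 libraries. They moved in the same direction as the NRF2 and p53 lists, and their part in those results was not tested. Adipocyte markers summed to 146 to 157 and 135.6 to 143 FPKM at 36 h without and with IL-1β, and to 52.6 to 54.4 and 56.8 to 62.2 at 72 h, with Plin1, Cfd, Cidec and Lep below 1 FPKM in all 12 libraries. Without IL-1β 3 of the 4 tested fell between the times, with shifts of -79.9 FPKM for Fabp4 and -22.5 for Lpl, whereas Pparg rose (5.43). Macrophage and neutrophil markers summed to 55.3 to 59.9 and 76.8 to 88.5 FPKM at 36 h and to 105 to 116 and 160 to 180 at 72 h, with Ptprc, the common leukocyte gene, and Aif1 below 1 FPKM throughout. Lyz2 held a large part of the higher sums with IL-1β, which raised its mean by 11.7 FPKM at 36 h and 41.4 at 72 h. Of 12 markers tested, 5 were higher and 2 lower with IL-1β at 36 h, and 5 were higher and 5 lower at 72 h. Endothelial and mural markers summed to 77.1 to 79.9 and 74.8 to 75.5 FPKM at 36 h and to 106 to 112 and 68.7 to 76.7 at 72 h, with Cdh5, Cldn5, Kdr, Pecam1 and Emcn below 1 FPKM throughout. Of 6 tested, 3 had a negative difference and none a positive one, namely the mural genes Cspg4 (-0.78), Notch3 (-0.68) and Pdgfrb (-0.38), the direction of the contractile list, and their part in that result was not tested. The 13 dermal fibroblast markers summed to 813 to 842 and 613 to 627 FPKM at 36 h and to 788 to 839 and 517 to 568 at 72 h, and 4 of them had a positive and 3 a negative difference; chondrocytes in culture express many of these genes too. The labels describe the fibroblasts as kept apart by the transwell membrane.

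The same test in the 12 libraries of normal culture, which share no library with those of co-culture, passed for 4588 genes (37.7%), with 2388 positive (19.6%) and 2200 negative differences (18.1%). Of the 2111 genes with a positive difference in co-culture 1465 were also positive in normal culture (69.4% of the co-culture genes and 61.3% of the normal ones), and of the 1996 negative ones 1339 were negative there (67.1% and 60.9%). Opposite calls were found for 2 genes. Across the 12178 genes, which are not independent replicates, the time differences of both cultures had a Pearson r of 0.849 and a Spearman rho of 0.776. Lcn2 had 5.44 in co-culture and 5.15 in normal culture, Mmp3 4.58 and 4.75, Egln3 2.33 and 2.38, Nqo1 -2.05 and -2.16, and Gsta4 -2.89 and -2.68.

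**Figure D4:**
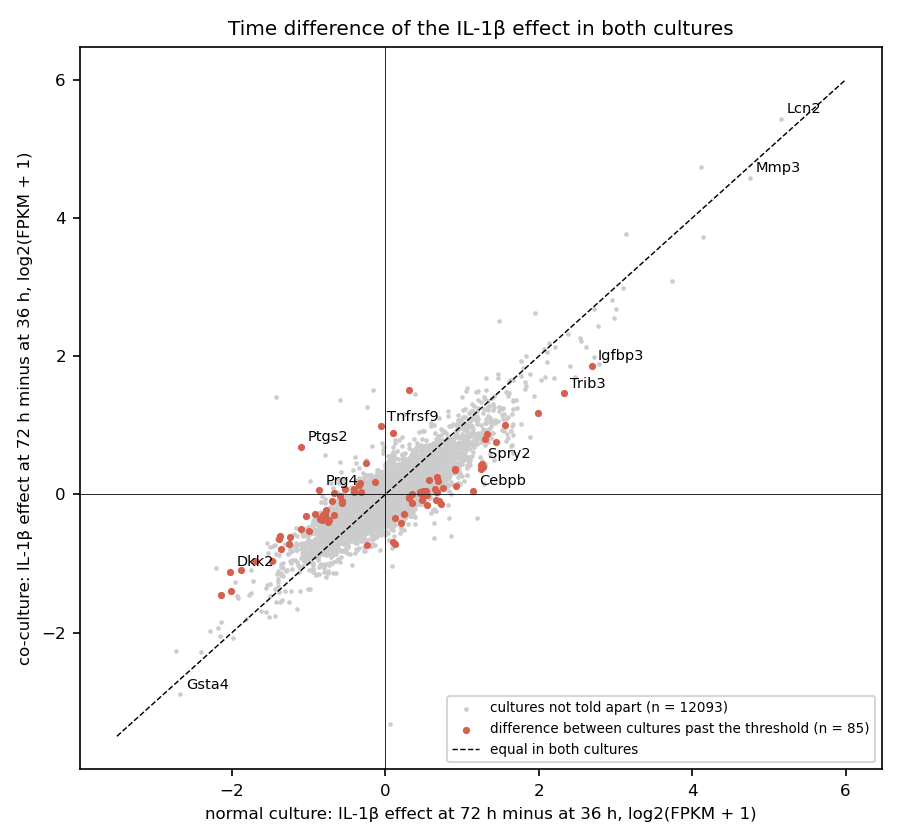
Change of the IL-1β effect from 36 h to 72 h, for normal culture (x axis) and co-culture (y axis), on the scale of log2(FPKM + 1), 1 point per tested gene; red marks the 85 genes for which the difference between cultures passed. Most genes lie along the dashed line of equal values, with Ptgs2 and Tnfrsf9 above it and Trib3, Cebpb and Spry2 below.

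The difference between the cultures, fitted over all 24 libraries, passed for 85 genes (0.698%), 43 with a higher (0.353%) and 42 with a lower (0.345%) time difference in co-culture. The part of the culture medium in this difference was not tested. This count rested on single libraries: without replicate 1 of the IL-1β group of normal culture at 72 h the count was 294 higher and 423 lower, without replicate 2 of that group 109 and 98, and without replicate 3 of the IL-1β group of co-culture at 72 h 135 and 138. Leaving out each of the other libraries gave counts down to 25 higher and 24 lower. In at least 1 direction the count fell by more than 1.5 times without replicate 1, 2 or 3 of untreated co-culture at 36 h, replicate 1 or 3 of treated co-culture at 36 h, replicate 3 of untreated co-culture at 72 h or replicate 1 or 2 of treated co-culture at 72 h. In normal culture the same held for replicate 1 of the untreated and replicate 2 of the treated group at 36 h and for replicates 2 and 3 of the untreated group at 72 h.

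Ptgs2, the prostaglandin synthase COX-2, differed most among the named genes (1.79 ± 0.32, adjusted p = 0.012). In co-culture its untreated level fell from 97.3, 95.6 and 94.2 FPKM to 46.0, 51.5 and 52.4, and in normal culture it went from 19.03, 21.4 and 21.3 to 43.5, 52.5 and 54.1. The treated levels were 508, 500 and 538 FPKM at 36 h and 495, 438 and 385 at 72 h in co-culture, and 560, 499 and 605 at 36 h and 936, 552 and 440 at 72 h in normal culture. The untreated groups of both cultures were apart at 36 h and overlapped at 72 h. For Prg4 (0.93 ± 0.10, adjusted p = 4.77e-05) the untreated level was steady in co-culture, at 33.2, 32.0 and 31.1 FPKM and then 32.4, 31.5 and 33.4, and went up in normal culture, from 32.8, 28.1 and 30.2 to 49.3, 51.1 and 51.0. With IL-1β Prg4 was at 86.5, 84.9 and 85.8 FPKM and then 93.3, 85.1 and 93.8 in co-culture, and at 115, 108 and 118 and then 104, 101 and 103 in normal culture.

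The time difference of Tnfrsf9 in co-culture was 0.99, and 2.55 with a pseudocount of 0.1 and 1.61 in TPM. Tnfrsf9, a costimulatory receptor of the TNF family (1.05, adjusted p = 0.0043), was at 3.44, 3.46 and 3.95 FPKM without IL-1β at 36 h in co-culture and at 0.95, 1.06 and 0.61 in normal culture, and below 1 FPKM in both at 72 h. Dkk2, a WNT antagonist, had 0.90 (adjusted p = 0.0043): without IL-1β it fell in co-culture from 4.82, 4.64 and 5.13 to 2.22, 1.94 and 2.11 FPKM, and in normal culture it was at 2.09, 2.00 and 1.69 and then at 1.83, 1.69 and 1.94. The treated Dkk2 levels of both cultures overlapped at each time.

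In the negative direction, Trib3 (-0.86, adjusted p = 0.012) had time differences of 1.46 in co-culture and 2.32 in normal culture, where its treated level was 4.85, 4.75 and 6.34 FPKM at 36 h and 18.3, 21.0 and 23.5 at 72 h. The growth factor binding protein gene Igfbp3 (-0.83, adjusted p = 0.011) had 1.86 and 2.69; its untreated level fell from 36.6, 37.3 and 37.1 FPKM to 10.0, 8.69 and 10.5 in co-culture and went from 92.9, 76.4 and 85.7 to 12.9, 10.5 and 11.9 in normal culture. Spry2, a feedback inhibitor of growth factor signalling (-0.82, adjusted p = 0.011), had 0.45 and 1.26, and Slc16a3 (-0.55, adjusted p = 0.023) had 1.01 and 1.56. These were differences in size: for Trib3, Igfbp3, Spry2 and Slc16a3 the time difference passed in the same direction in both cultures.

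**Figure D5:**
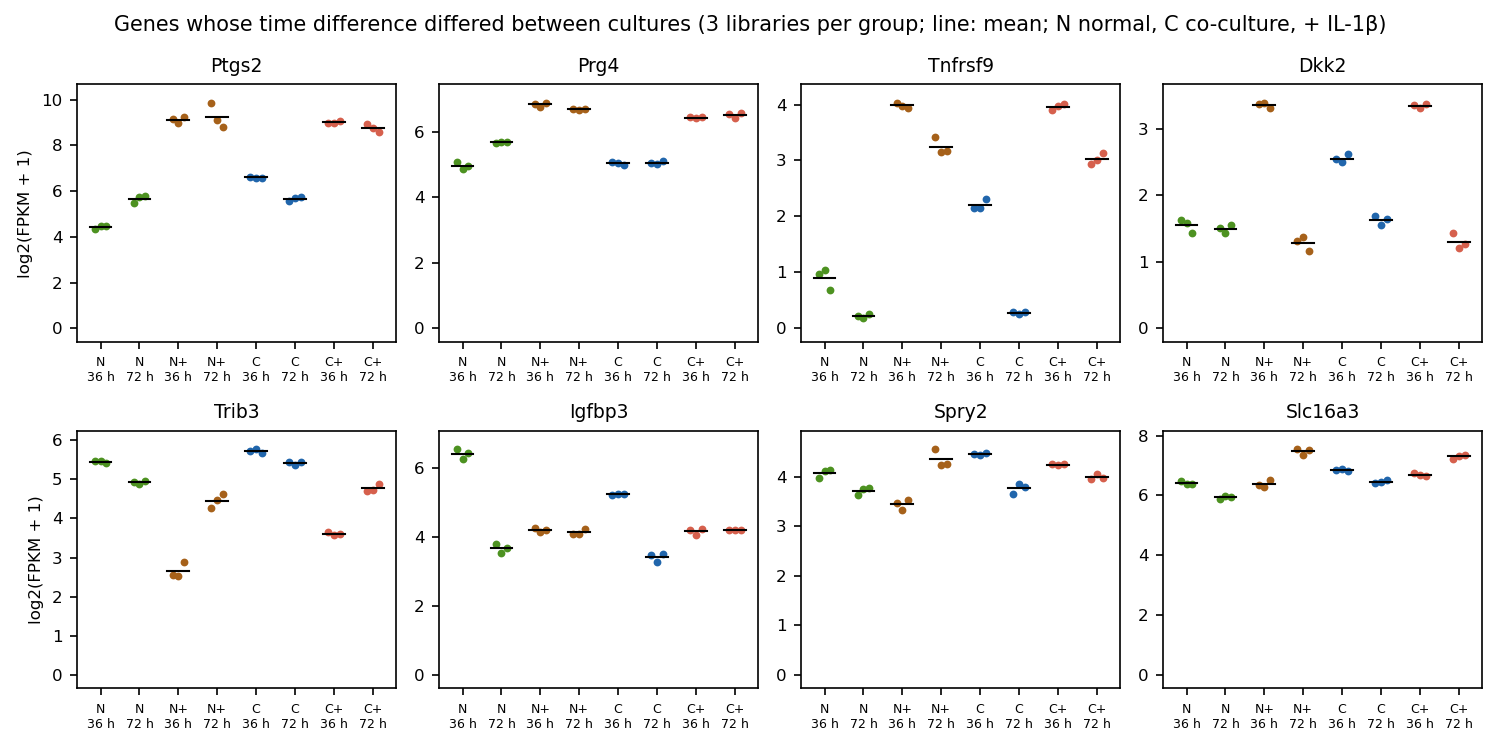
Level of 8 genes in each of the 24 libraries, as log2(FPKM + 1); N is normal culture, C is co-culture, + marks IL-1β, points are libraries and lines are group means. The untreated Ptgs2 points lie lower at 72 h than at 36 h in co-culture and higher in normal culture, and the untreated Prg4 points lie higher at 72 h in normal culture.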

How the data were processed

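Poly(A)-selected RNA of 24 libraries was sequenced, 3 in each of 8 groups. The authors deposited 1 table of FPKM values for 17094 genes, without counts; GRCm38 is the genome build per the submitters' processing notes, and the aligner and quantifier are not given in the sources used here. Low values were divided by the lowest value above 0 of the same gene over all 24 libraries. Of 246 such ratios in 78 genes, 31.7% lay within 0.1 of a whole number, against 20% by chance. A step would differ between libraries with depth, so this check cannot show whether low values are whole multiples of one. Depth was not recovered, and the precision it gives is unknown. The log2(FPKM + 1) values were computed here from the deposited FPKM and understate the change of low genes between groups. A time difference can come out smaller or larger through this. With a pseudocount of 0.1 its size grew for Nos2 and Perp. It shrank for Mmp9 (-0.50 in place of -1.0) and Cnmd (0.61 in place of 1.01), which then did not pass. Genes at 1 FPKM or more in at least 3 of the 24 libraries (12178) were fitted with limma (version 3.58.1, R version 4.3.3), using a trended prior and Benjamini-Hochberg adjustment over all of them at 0.05. The 12 co-culture libraries made 1 fit (8 residual degrees of freedom), the 12 of normal culture another, and all 24 the fit of the difference between cultures (16). Same-numbered libraries showed little common deviation in co-culture (correlations of -0.174 to 0.251 over their pairs), so replicate numbers were not used as a block in the main fits. The values were highest between the untreated and treated groups of 72 h, at 0.0309, 0.167 and 0.251 for replicates 1, 2 and 3. Groups were taken from the labels. No pair of libraries was identical.

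Genes were named by a rule: 13 core genes, the 15 largest time differences in each direction among genes that passed and averaged 5 FPKM or more in their highest group, up to 4 members of each list by size of difference, up to 3 abundant genes of each marker list, 6 of each class and 6 per direction between the cultures; other members of the 35 lists (612 genes) were named from their lists, and the text prints a selection. Members and lists were chosen with earlier results of these data known. Alternatives were another pseudocount, other filters, TPM, median-of-ratios scaling, all 24 libraries, replicate blocks, weights per group, no trend and each library left out; weights per library and differences in FPKM were added after the data were seen. The scripts were tested on simulated data.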

Additional observations from a re-analysis of the deposited data

Results flagged for a closer look

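The IL-1β effect in co-culture differed between 36 h and 72 h, by a test of the difference itself, for 2111 genes in the positive and 1996 in the negative direction. The time difference also differed between co-culture and normal culture for named genes. It was higher in co-culture for Ptgs2 (by 1.79 on the log2 scale), S100a9 (1.2), Tnfrsf9 (1.05), Prg4 (0.928), Dkk2 (0.902), Itih5 (0.787) and Lif (0.784), and lower for Cebpb (-1.09), Isyna1 (-0.861), Trib3 (-0.86), Igfbp3 (-0.83), Spry2 (-0.819), Scara5 (-0.816) and Slc16a3 (-0.55). Of these, Lif, Cebpb and Scara5 did not pass in many of the alternative analyses, and Isyna1 did not pass in 3. S100a9 (adjusted p = 0.046 in the limma fit of all 24 libraries) and Slc16a3 were not covered by the alternative analyses of this difference.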

How the results depend on the processing

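No named gene whose time difference passed changed sign on the log2 scale under any alternative run; differences in FPKM, which did change sign for some genes, stand with the other observations. With all 24 libraries in 1 fit 1714 genes had a positive and 1799 a negative difference, against 2111 and 1996. Leaving out 1 library at a time gave 1845 to 2347 genes with a positive and 1741 to 2243 with a negative time difference; the highest counts came without replicate 3 of treated co-culture at 72 h. The difference between cultures then ranged from 25 to 294 genes higher and 24 to 423 lower. With a pseudocount of 0.1, 252 genes passed with at least a 2-fold positive and 219 with a 2-fold negative difference, and among these the treated level moved more for 117 and the untreated level for 278, with 76 not told apart. In TPM there were 146 genes with a 2-fold negative difference, 43 of 2-fold size not told apart, and 23 genes lower between cultures; median-of-ratios scaling gave 74 of the last kind. With a replicate block within each time, 1393 genes were not told apart, 42 of them at 2-fold size, and 72 genes were higher and 85 lower between cultures; the counts of positive and negative differences were 2122 and 2026 with this block and 2047 and 1940 with a replicate block over all libraries. Weights per library, added after the data were seen, gave 3066 positive and 3013 negative differences, 3078 genes for which the treated level moved more, and 552 higher and 731 lower between cultures. The cause of these changes was not tested. Without depth, the counting error of low genes is unknown.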

Other observations

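On the linear scale some time differences had the opposite sign from the log2 scale: this held for 16 of the 151 genes with a positive difference of at least 2-fold (10.6%) and for none of the 86 negative ones. Among all genes that passed it held for 137 of 2111 positive (6.49%) and 20 of 1996 negative ones (1.0%). The difference in FPKM was -1137 for Mmp3, -796 for Saa3, -443 for Lcn2, -284 for Cxcl5, -102 for Hp, -30.4 for Ptgs2 and -8.89 for Il6. It was positive for Ccl2 (585), Mmp13 (87.4) and Nos2 (37.1). No test was made on this scale.

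Of 20 immediate early genes 10 had a positive and 3 a negative time difference, with Ier3 (1.65) and the growth regulator gene Myc (1.10) above and the RNA decay factor gene Zfp36 (-0.55) below. Of 18 endoplasmic reticulum chaperone genes 6 had a positive difference and none a negative one; without replicate 1 of treated co-culture at 72 h the number was 10. Of 22 interferon-stimulated genes 8 had a negative difference and 1 a positive one, and 3 in place of 8 were negative without the filter on low values. Without replicate 2 of treated co-culture at 36 h, 4 were positive and 4 negative. The negative count was 4 without replicate 3 of the untreated 36 h or replicate 1 of the untreated 72 h group, and 5 without replicate 3 of the untreated 72 h or replicate 1 or 2 of the treated 72 h group.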
